A study of Mus musculus with 24 samples.

Results

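The genes described here are 35 genes that drive or carry out the cell cycle and DNA replication, measured in mouse liver. They were listed by gene symbol and not picked by their values, though earlier results of these data were known. Of the 35 genes, 34 had at least 1 probe set that the platform table names with that symbol alone, and 31 were bright enough to be tested, of 18194 genes named in this way and 13114 tested on the arrays. Ccnb1, which encodes cyclin B1, was named for no such probe set and was not analysed here. Cdc6, Tyms and Bub1, needed for replication licensing, thymidylate synthesis and the spindle checkpoint, lay under the filter on dim genes. Their group mean intensities were between 0.94 and 3.27 for Cdc6, 2.93 and 4.10 for Tyms, and 1.49 and 3.12 for Bub1, against a filter at 3.88.

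A cell leaves rest when D-type cyclins with Cdk4 or Cdk6 inactivate the retinoblastoma protein and free E2F factors, which switch on genes of the S phase. The Mcm helicase is loaded on DNA in G1, polymerases with the sliding clamp Pcna copy the DNA, and Cdk1 with cyclins A and B then drives mitosis until Cdc20 and Ube2c direct the destruction of the mitotic cyclins. Most hepatocytes of an adult liver are at rest and re-enter the cycle after tissue loss or injury, so transcripts of mitosis are scarce in healthy liver.

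The arrays came from 24 male BALB/c mice, 1 array for the RNA of each mouse, in 4 groups of 6. Mice arrived at 6 weeks of age. Control mice received no injection, and the other 18 mice were injected intraperitoneally with 185 mg/kg streptozotocin (STZ), an alkylating glucose analogue that destroys pancreatic beta cells. A week later the injected mice, picked for a non-fasting glucose of 230 to 400 mg/dL, were given the purified diet AIN93G alone (STZ) or AIN93G with 0.1% or 0.5% quercetin, a plant flavonol, for 14 days. Controls ate AIN93G without quercetin for those 14 days. Streptozotocin acts as a DNA-damaging agent in the liver as well, so its own effect and that of diabetes cannot be told apart in these groups, nor can the effect of the injection itself, since the labels describe no buffer injection for controls. Cages held 3 mice, and the labels tie no mouse to a cage.

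Levels below are log2(intensity + 16) after quantile normalization, on which an intensity of 0 would read 4, and differences are on the same scale, which understates the change of dim genes. A gene was called where its limma p, adjusted over the 13114 genes, was under 0.05. Before normalization, mean array intensity was between 61.0 and 102.0. After it, pairs of arrays correlated at 0.964 to 0.989. The normalized intensities of 9 hepatocyte markers, albumin among them, summed to 37400 to 38800 in controls and to 35900 to 39800 in the other groups. Most of the cell cycle genes were dim. Mean intensity was under 10 for 11 of the 31 tested and under 50 for 26, and it passed 100 for Ccnd1, Pcna and Cks2. In whole liver, more cycling cells and more RNA per cell cannot be told apart.

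Before the values, the promoters of the genes that changed are shown, because genes of mitosis and genes of DNA synthesis are known to differ in the short elements there. The CHR element binds the DREAM and MuvB complexes that repress mitotic genes at rest, CCAAT boxes bind NF-Y, and E2F sites are typical of S phase genes. RefSeq promoter windows of GRCm38.p6, from 250 bases before to 50 after the start, were at hand for 29 of the 35 genes (31 windows) and for 5 of the 6 genes called in any comparison. The stretches below end at the base before the start and hold 100 bases, except that of Ccnb2, which was extended to reach CHR letters at base -167, since its 100 bases before the start held none (a further match stands after the start, at base 5, and is not printed). They have the CHR letters (TTTGAA, or TTCAAA on the other strand) and the CCAAT letters (CCAAT or ATTGG) in capitals.
Cdk1, chr10:69352913-69353012, minus strand: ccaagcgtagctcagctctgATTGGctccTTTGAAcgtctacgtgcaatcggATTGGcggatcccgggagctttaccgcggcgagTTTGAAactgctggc
Ccnb2, chr9:70421555-70421729, minus strand: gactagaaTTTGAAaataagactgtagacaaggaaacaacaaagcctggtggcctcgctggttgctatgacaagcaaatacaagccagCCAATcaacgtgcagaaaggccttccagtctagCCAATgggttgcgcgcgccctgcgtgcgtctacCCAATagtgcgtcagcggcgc
Cdc20, chr4:118437344-118437443, minus strand: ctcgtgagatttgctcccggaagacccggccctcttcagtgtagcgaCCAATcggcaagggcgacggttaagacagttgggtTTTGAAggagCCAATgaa
Ube2c, chr2:164769829-164769928, plus strand: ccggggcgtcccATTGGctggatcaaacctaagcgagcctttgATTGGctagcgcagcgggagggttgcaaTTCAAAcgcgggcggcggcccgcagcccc
Pcna, chr2:132253181-132253280, minus strand: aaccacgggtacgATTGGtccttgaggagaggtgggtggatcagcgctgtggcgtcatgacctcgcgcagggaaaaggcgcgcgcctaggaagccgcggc

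The CHR letters stood in the windows of Cdk1, Ccnb2, Cdc20 and Ube2c, and the printed stretch of Pcna held the CCAAT letters without them. Among the genes of G2 and mitosis, 12 of 17 windows (70.6%) held the CHR letters, against 1 of 14 windows (7.14%) of the genes of G1, licensing and synthesis and 17.9% of all 32851 promoter windows. The CCAAT letters stood in 15 of 17 windows (88.2%) of the first set, in 8 of 14 (57.1%) of the other and in 37.4% of all windows. E2F-like runs (TTTCCCGC, TTTGGCGC, TTTCGCGC or TTTGCCGC, on either strand) showed the opposite split, with 1 of 17 windows (5.88%) against 6 of 14 (42.9%), and 2.26% of all windows. None of these runs contains another. The 1 window among the 17 was that of Cdk1, whose TTTCGCGC begins at base -131, outside the printed stretch. In the 100 bases before the start alone, the CHR letters stood in 7 of 17 windows (41.2%) against 1 of 14 (7.14%) and 5.77% of all windows. E2F-like runs stood there in 0 of 17 against 1 of 14, and 0.846% of all windows, so that their split rests on the longer window. All of these are matches of letters and show no binding.

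In STZ livers, 2 of the 31 genes rose against control and none fell. These were Ccnd1, which encodes cyclin D1 and opens the way into the cycle, and Cdk1, the kinase that drives entry into mitosis. None of the licensing genes was called. Over all 13114 genes, 2.03% were called higher and 1.69% lower, and the 2 genes called are 2 of 31. At an unadjusted p under 0.05, 6 of the 31 genes were higher and 2 lower (25.8%), against 16.7% of all genes in either direction. The median difference of the 31 genes was 0.06, against -0.02 over all genes, and 17 means (54.8%) lay above control and 14 below, against 44.7% of all genes above. On the values as deposited the medians were 0.13 and 0.06, with 23 of the 31 means above control.

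Cyclin D1 is the partner of Cdk4 and Cdk6 and the step of the cycle that responds to growth signals. The Ccnd1 levels of control mice were 5.70, 5.72, 6.14, 6.23, 6.25 and 6.30, and those of STZ mice 7.12, 7.12, 7.18, 7.49, 7.75 and 7.81. Every STZ mouse thus lay above every control mouse, which held for 1.96% of all genes and in the other direction for 2.23%. The mean rose from 6.06 ± 0.27 to 7.41 ± 0.32 (SD, n = 6 each), by 1.36 (SE 0.29, 2.56-fold, limma adjusted p = 0.00764). In intensity the medians were 56.9 and 147. The other 2 probe sets of Ccnd1 had means higher by 1.17 and 1.14, with every STZ mouse above every control mouse in each.

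Cdk1 was the other gene called. Control mice had Cdk1 levels of 4.43, 4.78, 4.78, 4.79, 4.88 and 5.02, and STZ mice 5.06, 5.17, 5.17, 5.21, 5.42 and 5.43. The groups did not overlap, though the highest control and the lowest STZ mouse were close. The difference was 0.47 (SE 0.12, 1.38-fold, limma adjusted p = 0.0237), and the mean intensity went from 11.6 to 22.1. Cdk1 had 1 probe set on the array. Its call ended on the values as deposited. Without STZ replicate 3, STZ replicate 4 or control replicate 5 it ended as well, and without STZ replicate 3 Ccnd1 was the 1 gene still called. Counts over all genes are not given for these mice left out.

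**Figure D1:**
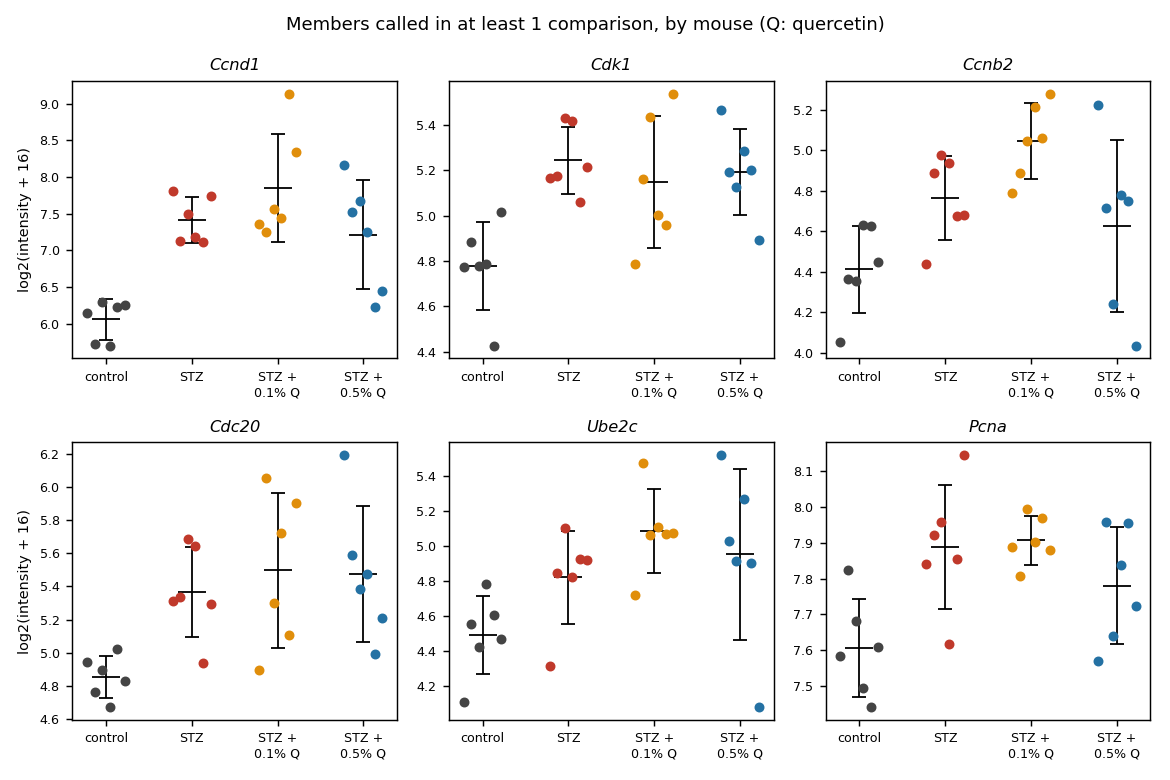
Levels of the 6 genes called in at least 1 comparison, as log2(intensity + 16) on the vertical axis, for each mouse of the 4 groups (points), with the group mean and SD (bars). Ccnd1 of every STZ mouse and every mouse on 0.1% quercetin lay above the highest control at 6.30, while 2 mice on 0.5% quercetin lay at 6.22 and 6.45.

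The other genes of the G1 to S step moved little. Cdk4, the kinase partner of cyclin D1, had a mean lower by 0.25 (SE 0.11, limma adjusted p = 0.248), and its other 2 probe sets differed by -0.31 and 0.05. Ccne1 and Ccne2, the E-type cyclins that activate Cdk2, differed by -0.13 and -0.15, and E2f1, an activating E2F factor, by -0.03. The other probe set of Ccne1 differed by 0.11. With Ccnd1 at 1.36, the median of these 5 genes was -0.13, and 1 mean of 5 lay above control.

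Of the 7 licensing genes tested, none was called. The Mcm2 to Mcm7 genes encode the 6 subunits of the replicative helicase, and Cdt1 helps load it. Their differences lay between -0.24 for Mcm7 and 0.15 for Mcm6, with a median of -0.08. Mcm7 came closest to a call. Its levels had a low, median and high of 6.62, 6.87 and 7.04 in controls and of 6.50, 6.62 and 6.80 in STZ mice, so that the groups overlapped. The difference was -0.24 (SE 0.08, limma adjusted p = 0.0913), and the other 3 probe sets of Mcm7 differed by -0.21, -0.05 and -0.23. Mcm2 had the widest spread of the 31 genes within the control and STZ groups, with SDs of 0.43 and 0.57.

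Pcna, the clamp that holds polymerases on DNA and also serves in DNA repair, had levels with a low, median and high of 7.44, 7.60 and 7.83 in controls and of 7.62, 7.89 and 8.15 in STZ mice. Of the 6 STZ mice, 5 lay above all controls. The difference was 0.28 (SE 0.09, limma adjusted p = 0.072) and missed the threshold. It passed without control replicate 2 and without STZ replicate 4. Rrm2, the S phase subunit of ribonucleotide reductase, differed by -0.06.

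Genes of G2 and mitosis other than Cdk1 had mostly higher means in STZ livers, by their brightest probe sets, without passing the test. Among the cyclins, Ccna2 differed by 0.18 and Ccnb2, cyclin B2, by 0.35 (SE 0.15, limma adjusted p = 0.213), with 5 of 6 mice above all controls. Cdc20, the activator of the anaphase-promoting complex, differed by 0.51 (SE 0.18, limma adjusted p = 0.116), also with 5 of 6 mice above all controls. Ube2c, the ubiquitin-conjugating enzyme that works with that complex, differed by 0.33 and Bub1b, a kinase-like protein of the spindle checkpoint, by 0.21. The kinases Aurka, Aurkb and Plk1, which drive spindle assembly and division, differed by -0.01, 0.01 and -0.06. The medians were 0.27 for Ccna2, Ccnb2, Cdk1 and Cks2, 0.18 for the 7 mitotic regulators and 0.16 for the 6 spindle and chromosome genes. Over all genes the median was -0.02. Means lay above control in 3, 5 and 5 cases, and in 44.7% of all genes. Cks2, bright in controls at a mean intensity of 214, differed by -0.04, and its other probe set by 0.17.

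Among the spindle and chromosome genes, Mki67, which encodes the proliferation marker Ki-67, had low, median and high levels of 4.42, 4.53 and 5.02 in controls and of 4.59, 4.74 and 5.01 in STZ mice. The groups overlapped widely, and the difference was 0.10 (SE 0.14, limma adjusted p = 0.767). The topoisomerase gene Top2a and the spindle genes Kif11 and Prc1 differed by 0.23, 0.21 and 0.24, Nusap1 by 0.08 and Tpx2 by -0.10. Other probe sets of Top2a, Kif11 and Prc1 gave smaller or opposite differences. They were -0.13 and -0.02 for Top2a, -0.04 and 0.07 for Kif11, and 0.04 for Prc1. Of these, the probe sets at -0.13 and 0.04 lay over the filter. None of the 6 genes was called.

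**Figure D2:**
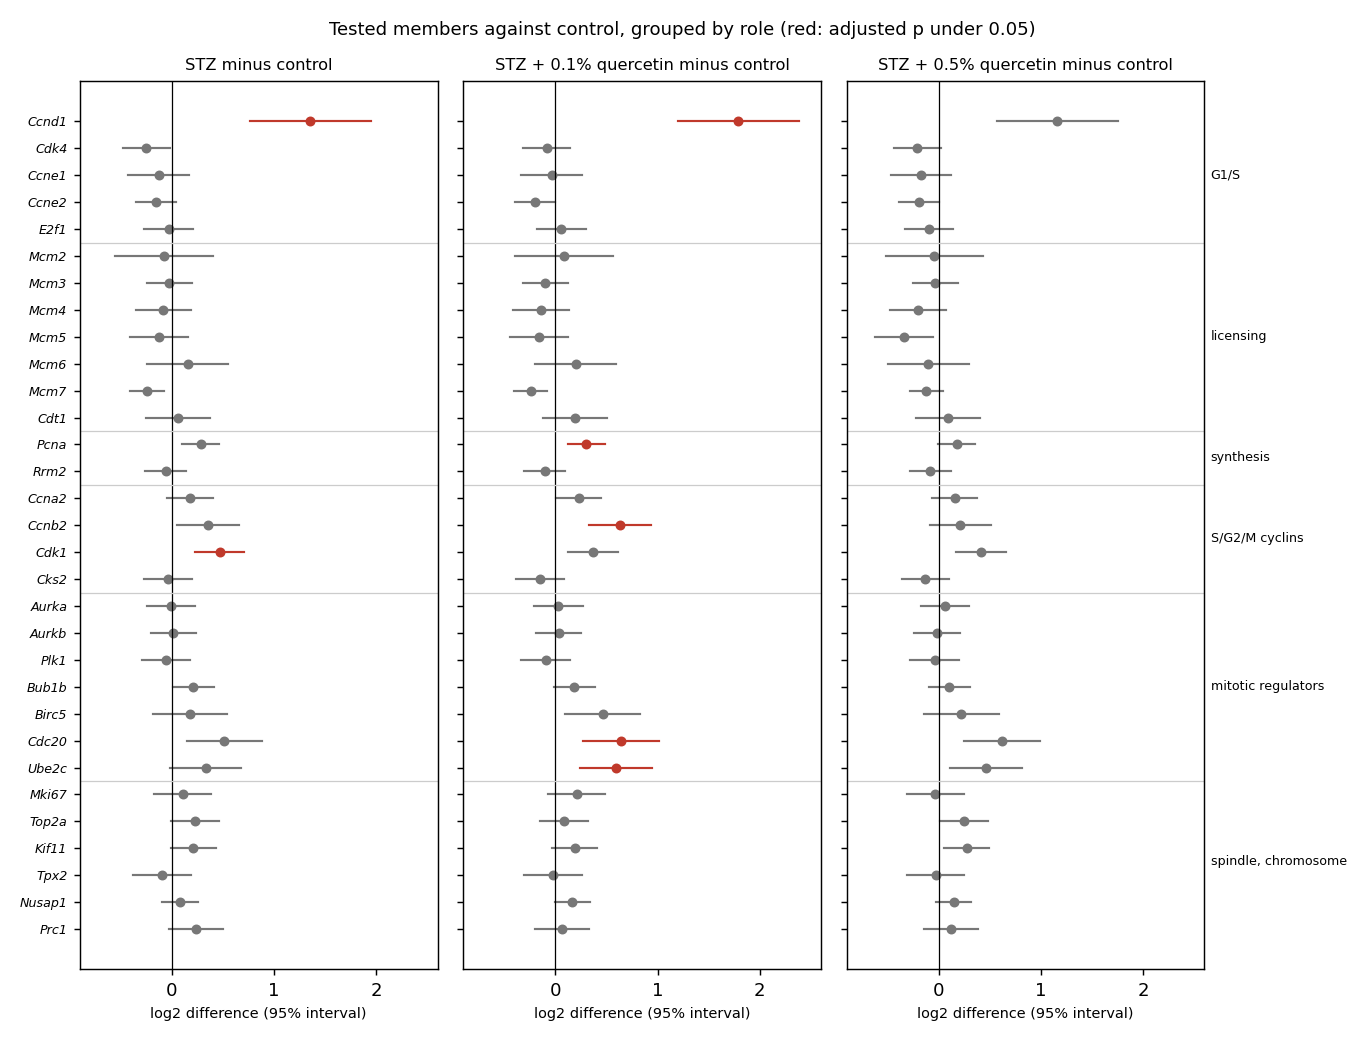
Difference from control on the log2(intensity + 16) scale (points) with its 95% interval (lines) for the 31 tested genes, grouped by role, in STZ mice and in STZ mice on 0.1% and 0.5% quercetin. Called genes are red, 2 in the first panel, 5 in the second and 0 in the third, and the licensing genes sit on both sides of 0 in each panel.

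In STZ mice on 0.1% quercetin, 5 of the 31 genes were higher than in control and none was lower. To Ccnd1 were added Pcna and the mitotic genes Ccnb2, Cdc20 and Ube2c, whereas Cdk1 missed the threshold. Of all genes, 2.94% were higher and 2.64% lower in this comparison, with the same controls as in the one before. At an unadjusted p under 0.05 there were 8 higher and 2 lower genes of 31 (32.3%), against 18.9% of all genes. The median difference was 0.08, against -0.01 over all genes, and 20 of 31 means (64.5%) lay above control, against 46.2% of all genes.

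Ccnd1 had levels of 7.25, 7.36, 7.44, 7.57, 8.34 and 9.14 in these mice. The highest 2 values belong to replicates 5 and 6, and the other 4 mice lay within the range of the STZ mice. All 6 lay above all controls, which held for 2.11% of all genes, and for 1.83% in the other direction. The mean of 7.85 ± 0.74 (SD, n = 6) was 1.79 above control (SE 0.29, 3.46-fold, limma adjusted p = 0.000511).

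Ccnb2 was also separated from control. Controls had Ccnb2 levels of 4.05, 4.36, 4.37, 4.45, 4.62 and 4.63, and mice on 0.1% quercetin 4.79, 4.89, 5.05, 5.06, 5.21 and 5.28. The groups did not overlap. The difference was 0.63 (SE 0.15, 1.55-fold, limma adjusted p = 0.00975), and the median intensity was 5.23 in controls and 17.2 on 0.1% quercetin.

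Cdc20 was less even. Its control levels were 4.67, 4.76, 4.83, 4.90, 4.94 and 5.02, and those on 0.1% quercetin 4.89, 5.11, 5.30, 5.72, 5.91 and 6.05. One mouse, replicate 1, lay inside the control range. The difference was 0.64 (SE 0.18, 1.56-fold, limma adjusted p = 0.0329), and the other bright probe set of Cdc20 differed by 0.61. Ube2c levels were 4.11, 4.42, 4.47, 4.56, 4.61 and 4.78 in controls and 4.72, 5.07, 5.07, 5.08, 5.11 and 5.48 on 0.1% quercetin. Again 5 of 6 mice lay above all controls, and the difference was 0.60 (SE 0.17, 1.51-fold, limma adjusted p = 0.0363).

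The smallest of these rises was that of Pcna. Its levels on 0.1% quercetin were 7.81, 7.88, 7.89, 7.90, 7.97 and 8.0, an SD of 0.07, and 5 of 6 lay above the highest control at 7.83. The difference was 0.30 (SE 0.09, 1.23-fold, limma adjusted p = 0.0406). Cdk1 had levels of 4.79, 4.96, 5.00, 5.16, 5.43 and 5.54 here, of which 3 lay above all controls, and differed by 0.37 (SE 0.12, limma adjusted p = 0.065). Birc5, which encodes the division and survival protein survivin, differed by 0.46 (SE 0.18, limma adjusted p = 0.135), with 5 of 6 mice above all controls. Mcm7 differed by -0.24 (limma adjusted p = 0.0762).

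The calls of Pcna, Cdc20 and Ube2c sat near the threshold. Leaving out 1 mouse changed the count of 5 to 2 without control replicate 3 and without 0.1% replicates 4 or 6, and to 3 without control replicates 1, 2, 4 or 6 and without 0.1% replicates 2, 3 or 5. Ccnd1 and Ccnb2 remained called in each of these. Without control replicate 6 the third gene called was Cdk1, which is not among the 5. Counts over all genes are not given for these mice left out. The changes therefore cannot be read as particular to the cycle genes.

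In STZ mice on 0.5% quercetin none of the 31 genes was called against control, where 0.13% of all genes were. Over all genes this count depended on the scaling, with 7 higher and 10 lower here and 37 higher and 649 lower under median scaling, where 2 of the 31 genes were called, Ccnd1 higher and Mcm7 lower. Without adjustment, 6 genes were higher and 1 lower at p under 0.05 (22.6%), against 12.3% of all genes. The median difference was -0.02, against -0.01 over all genes. The mice of this group were far apart. Ccnd1 had levels of 6.22, 6.45, 7.25, 7.52, 7.68 and 8.17. The lowest 2, replicates 5 and 6, lay within and just above the control range, and the other 4 lay within or above the STZ range. The mean of 7.21 ± 0.75 (SD, n = 6) was 1.16 above control (SE 0.29, limma adjusted p = 0.0794).

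Replicates 5 and 6 were the lowest 2 mice of this group for 9 of the 31 genes: Ccnd1, Mcm6, Rrm2, Aurka, Birc5, Cdc20, Ube2c, Mki67 and Prc1. The same count was not made over all genes, so it cannot be read as a trait of the cycle genes. On the first principal component, the main axis of variation over all tested genes, these 2 mice lay at -17.2 and -19.2. Controls lay there between -18.3 and -13.5, and the other injected mice between -0.86 and 19.6. For Cdk1 and Ccnb2 the lowest 2 were replicates 3 and 6. Cdk1 had levels of 4.89, 5.13, 5.19, 5.20, 5.29 and 5.47, with 5 of 6 above all controls and replicate 6 the lowest, and differed by 0.42 (SE 0.12, limma adjusted p = 0.138). Cdc20 had levels of 4.99, 5.21, 5.39, 5.47, 5.59 and 6.19 and differed by 0.62 (SE 0.18, limma adjusted p = 0.147). The lowest 2 were replicates 5 and 6, of which replicate 5 lay inside the control range.
Ube2c had a low, median and high of 4.08, 4.97 and 5.52, and Ccnb2 of 4.04, 4.73 and 5.22. For both genes replicate 6 was the lowest, below the lowest control, and replicate 1 the highest. Replicate 1 was the highest of its group for 16 of the 31 genes, a count likewise not made over all genes. Ube2c differed from control by 0.46 and Ccnb2 by 0.21 (limma adjusted p = 0.252 and 0.601).
Of the licensing genes, Mcm5 differed by -0.34 (SE 0.14, limma adjusted p = 0.298), with 5 of 6 mice below all controls.

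Without replicates 5 and 6, which earlier results of these data had set beside the controls, 4 genes were called higher against control, namely Ccnd1, Cdk1, Cdc20 and Ube2c. Ccnd1 then differed by 1.60. Over all genes the count went from 7 higher and 10 lower to 234 higher and 199 lower. These 2 mice were chosen because they resembled controls, so that a larger difference from control was built into the choice, and these counts are a description, not support for a change. Without replicate 6 alone 3 of the 31 genes were called, and without replicate 5 alone, or without replicate 5 of the 0.1% group, Ccnd1 was. These calls stand without the counts over all genes and are a description as well.

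**Figure D3:**
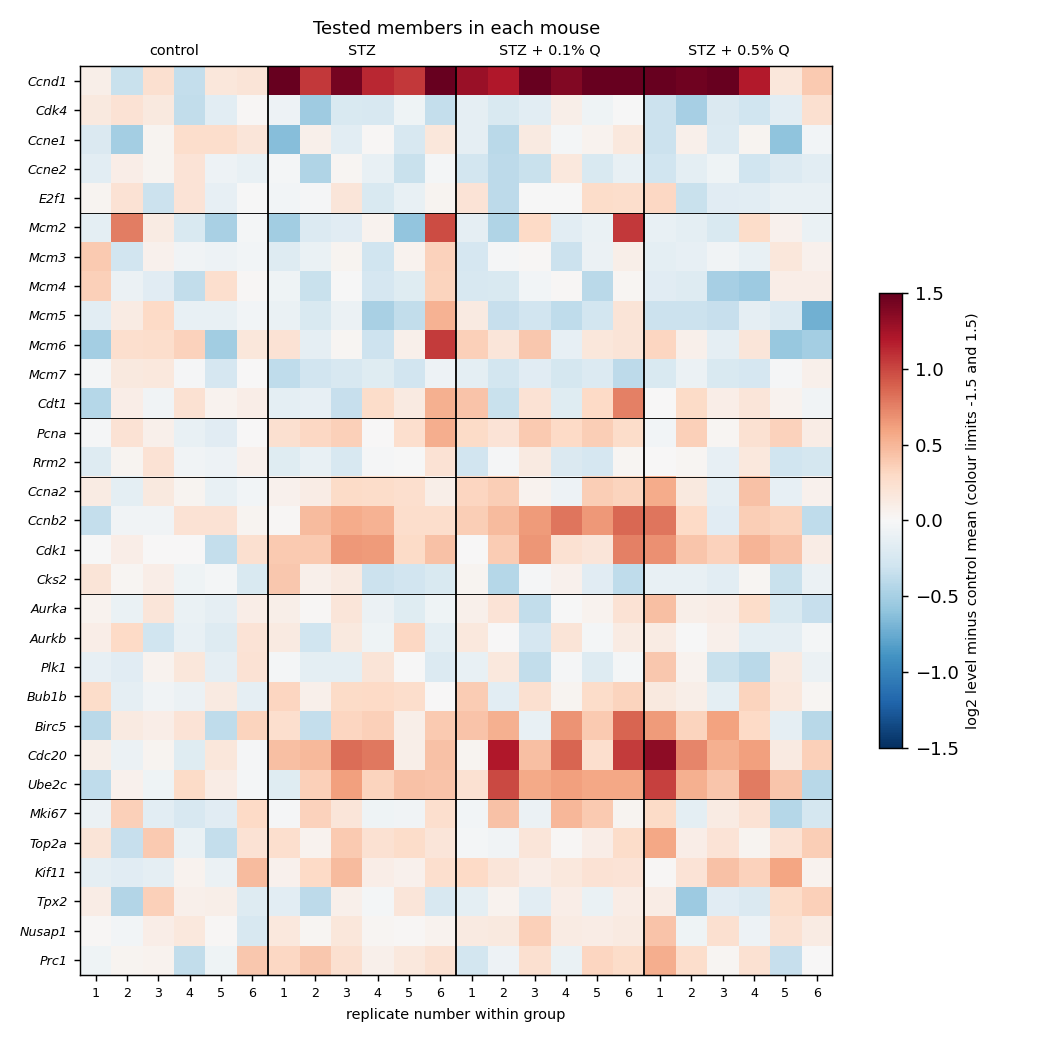
Level of each tested gene (rows, grouped by role) in each of the 24 mice (columns, numbered within their group) minus the control mean, on the log2(intensity + 16) scale, with red higher and blue lower. Ccnd1 is dark red in the 6 STZ mice and the 6 mice on 0.1% quercetin and pale in replicates 5 and 6 of 0.5% quercetin, and the rows of Ccnb2, Cdk1, Cdc20 and Ube2c are redder than those of the Mcm genes.

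Neither dose of quercetin moved a cell cycle gene against STZ alone past the threshold. At 0.1%, 0 of the 31 genes were called and 0 had an unadjusted p under 0.05, against 0% and 5.24% of all genes. The smallest unadjusted values were those of Ccnb2, Birc5 and Ube2c, which differed by 0.28, 0.29 and 0.26 (limma adjusted p = 0.936, 0.965 and 0.974). Birc5 had a low, median and high of 4.11, 4.75 and 4.85 in STZ mice and of 4.35, 4.94 and 5.33 on 0.1% quercetin, with 4 of 6 above all STZ mice. Ccnd1 differed by 0.44, with a 95% interval of -0.15 to 1.03.

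At 0.5% against STZ alone, again 0 of 31 were called and 0 had an unadjusted p under 0.05, against 0% and 7.51% of all genes. The first 3 by p were licensing genes. Mcm5 differed by -0.22, Mcm7 by 0.12 and Mcm6 by -0.26 (limma adjusted p = 0.739, 0.758 and 0.799). Mcm6 had a low, median and high of 4.28, 4.65 and 5.65 in STZ mice and of 4.03, 4.56 and 4.92 on 0.5% quercetin. The ranges overlapped for most mice, and the signs within the helicase differed. Ccnd1 differed by -0.20.

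Between the doses, 0 of 31 genes were called and 2 had an unadjusted p under 0.05 (6.45%), against 0% and 8.34% of all genes. Ccnb2 at 0.5% minus 0.1% differed by -0.42, with a 95% interval of -0.72 to -0.12 (limma adjusted p = 0.464), and 5 of 6 mice on 0.5% lay below all mice on 0.1%. Ccnd1 differed by -0.63, with an interval of -1.22 to -0.04 (limma adjusted p = 0.556). Mki67 had a low, median and high of 4.57, 4.88 and 5.16 at 0.1% and of 4.23, 4.65 and 4.94 at 0.5%, a difference of -0.24 (limma adjusted p = 0.644). None of these 3 passed the test.

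A trend with the percentage of quercetin over the 18 injected mice likewise gave 0 calls and 0 unadjusted p under 0.05 among the 31 genes, against 0% and 8.13% of all genes. The slopes with the smallest p were 0.26 per 1% of diet for Mcm7 (SE 0.15), -0.59 for Mcm6 (SE 0.34) and -0.44 for Mcm5 (SE 0.27), with limma adjusted p of 0.658, 0.683 and 0.697. The slope of Ccnd1 was -0.74 (limma adjusted p = 0.798).

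Genes that arrest the cycle, and genes that p53 induces or is controlled by, made up a further list. Of its 16 tested genes, 5 were higher and 0 lower in STZ livers, with a median of 0.23. Over all genes, 2.03% were higher and 1.69% lower, with a median of -0.02. The same 5 were called higher at 0.1% quercetin, against 2.94% of all genes. At 0.5%, 0 were called, against 0.13% of all genes. Cdkn1a, which encodes the Cdk inhibitor p21 and is a target of p53, had a low, median and high of 4.85, 5.57 and 6.04 in controls, 8.40, 8.63 and 8.91 in STZ mice and 7.52, 8.08 and 8.48 on 0.1% quercetin. In STZ mice Ccng1, cyclin G1, another p53 target, rose by 1.52 (SE 0.24, limma adjusted p = 0.000448). Plk2, a stress-induced polo-like kinase, rose by 1.39, and Btg2, an antiproliferative gene, by 0.92. The other probe set of Plk2, under the filter, differed by -0.28. The last of the 5, named after its values were seen, was Mdm2, a p53 target whose product marks p53 for destruction and so opposes arrest.
On 0.5% quercetin Cdkn1a levels were 4.72, 5.01, 7.70, 8.22, 8.24 and 9.29. The lowest 2 were replicates 6 and 5, the same mice that had the lowest Ccnd1. Cdkn1b and Wee1, a further Cdk inhibitor and the kinase that holds Cdk1 inactive, differed in STZ livers by 0.08 and 0.24 (limma adjusted p = 0.841 and 0.695).

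**Figure D4:**
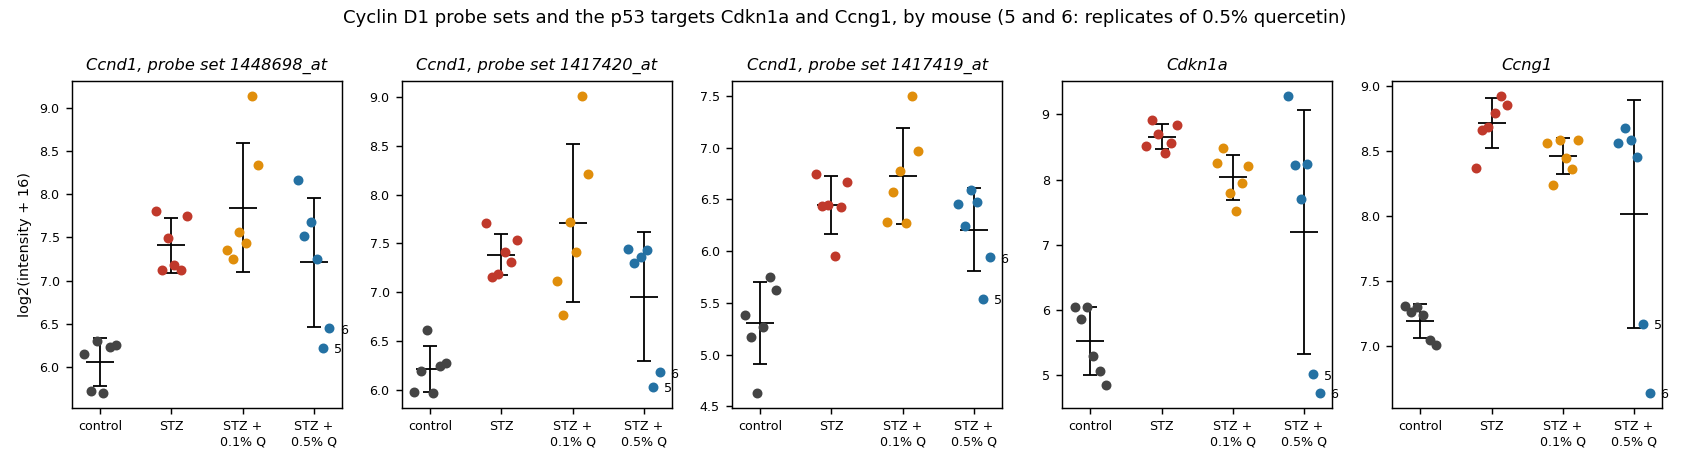
Levels, as log2(intensity + 16), of the 3 probe sets of Ccnd1 and of Cdkn1a and Ccng1 in each mouse (points) with group mean and SD (bars), each panel on its own scale. In the mice labelled 5 and 6 on 0.5% quercetin Cdkn1a lay at 5.01 and 4.72, within or below the control range, and these mice were also the lowest of their group for each of the 3 probe sets of Ccnd1.

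The lists around the cycle genes gave few calls. Over all genes, 2.03% were called higher and 1.69% lower in STZ livers, with a median of -0.02. Among 13 further G1 cyclins and kinases 0 were called in STZ livers (median -0.06), where the other D-type cyclins Ccnd2 and Ccnd3 differed by 0.18 and 0.37 (limma adjusted p = 0.278 and 0.0978), Cdk2 by -0.32 (limma adjusted p = 0.0677), Cdk6 by 0.11 and the growth factor-responsive gene Myc by 0.15. These are the brightest probe sets. The other probe sets of Ccnd2 differed by -0.155 to 0.07, and those of Ccnd3, under the filter, by -0.23 and 0.06. Of 18 genes of the Rb, E2F and DREAM machinery, 1 fell, Rbbp4, a histone-binding subunit, by 0.45 (SE 0.09, limma adjusted p = 0.00391). The mitotic activators Foxm1 and Mybl2 differed by -0.07 and -0.09.
Of 38 other replication factors, 0 rose and 2 fell in STZ livers, with a median of -0.09. Prim1, the catalytic primase subunit, fell by 0.36 (SE 0.10, limma adjusted p = 0.0325). Mcm10, a factor of helicase activation, fell by 0.95 (SE 0.21, limma adjusted p = 0.0102) by its brightest probe set, while its other 2 differed by -0.03 and -0.12. Rrm2b, the p53-responsive ribonucleotide reductase subunit, differed by 0.07. Of 41 other mitotic genes 1 rose, Ckap2, a spindle protein, by 0.46 (SE 0.12, limma adjusted p = 0.0216), with a median of 0.07. At 0.1% quercetin 2 of the 41 were higher than control, against 2.94% of all genes. The calls of Rbbp4, Prim1 and Ckap2 ended on the values as deposited, and the last 2 also when some single mice were left out. None of the 16 core clock genes was called in STZ livers (median 0.05). At 0.1% quercetin 1 of these 16 was higher and 1 lower than control. In that comparison 1 of the 18 Rb, E2F and DREAM genes and 1 of the 38 replication factors were lower. Of the 13 G1 cyclins and kinases 0 were called. Of all genes 2.94% were higher and 2.64% lower.

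Some cell type markers and an RNA measure moved with the same groups. Of 12 tested macrophage and Kupffer cell markers 4 were higher in STZ livers, against 2.03% of all genes. The 13 listed genes summed to intensities of 1380 to 1790 in controls. With STZ alone the sums were 1930 to 2470, with 0.1% quercetin 2020 to 2370 and with 0.5% quercetin 1390 to 2240. Of 4 B and plasma cell markers 2 were lower, against 1.69% of all genes. The sums of the listed genes were 166 to 316 in controls and 61.7 to 244 at 0.5%. The highest sum was 100 in STZ mice and 94.4 at 0.1%. Markers of T and NK cells (0 of 4), granulocytes (0 of 6), erythroid cells (0 of 6) and bile ducts (0 of 3) were not called in STZ livers, and 1 of 8 endothelial (Lyve1) and 1 of 9 stellate cell markers (Dcn) were higher. Their part in the levels of Ccnd1, Cdk1 and the mitotic genes was not tested. The difference between the 3' and 5' control probe sets of Gapdh, a measure of RNA and labelling quality, was -0.04 ± 0.17 in controls (SD, n = 6 in each group). It was -0.34 ± 0.10 with STZ alone, -0.32 ± 0.15 with 0.1% quercetin and -0.21 ± 0.17 with 0.5%. The same difference for Actb did not separate the groups. It was 1.24 ± 0.19 in controls, 1.12 ± 0.23 with STZ alone, 1.19 ± 0.13 with 0.1% quercetin and 1.12 ± 0.10 with 0.5%. With the Gapdh difference as a covariate no cycle gene was called in any comparison. Ccnd1 then differed between STZ and control by 1.00 (SE 0.35, limma adjusted p = 0.387), and Cdk1 by 0.38. For STZ against control the count over all genes went from 266 higher and 222 lower to 4 and 2. For the other comparisons it is not given.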

How the data were processed

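The authors deposited linear intensities, a single value for each of 45101 probe sets on each array, from biotin-labelled cRNA on an Affymetrix mouse 3' array, per the labels' protocols. The summary algorithm and scaling are not given in the sources used here. The arrays were quantile normalized, converted to log2(intensity + 16), and tested with limma 3.58.1 in R 4.3.3 (lmFit and eBayes, 4 group means over 24 arrays, two-sided, Benjamini-Hochberg). Probe sets with 1 gene symbol in the platform table (34958, against 932 with several and 9211 with none) were used, the brightest per gene, and genes under the 40th percentile of probe set means (log2 level 4.31) were left out. The dose trend used the 18 injected mice. The fit was tested on simulated data. The genes, lists and settings were chosen with earlier results of these data known. Genes called in any comparison, the 3 with the smallest p in each, and up to 4 called genes of each list, with some fixed ones, were named. The p-values treat mice as independent. The alternatives were other scalings, constants, filters, probe set rules, limma options and covariates, and leaving out mice. The number of arrays limits the precision.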

Additional observations from a re-analysis of the deposited data

Results flagged for a closer look

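In 44 groups of 6 mice, for the 11 genes named by rule, the distance of the highest or lowest mouse from the next was set against the group's range, and 2 exceeded Dixon's critical value at the 95% level, where chance alone gives about 1 in 20 groups. Ube2c of STZ replicate 1 lay at 4.31, with the other 5 STZ mice between 4.82 and 5.10 (gap over range 0.644). Mcm5 of 0.5% quercetin replicate 6 lay at 4.58, with the others between 4.96 and 5.17 (0.646).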

How the results depend on the processing

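In STZ against control, the 2 calls became 1 on the values as deposited, 4 with a constant of 64, 4 with array weights, 0 with the Gapdh covariate and 1 to 3 when 1 mouse was left out. For 0.1% quercetin against control, the 5 calls became 2 on the values as deposited, 3 with a constant of 4, 0 with the Gapdh covariate and 2 to 5 when 1 mouse was left out. For 0.5% against control, the 0 calls became 2 under median scaling (Ccnd1 higher, Mcm7 lower), 1 with array weights, 4 without replicates 5 and 6, and 0 to 3 when 1 mouse was left out. Counts over all genes are not given for the constants, the array weights and the single mice left out. Nor are they given for the Gapdh covariate at 0.1%. Those changes therefore cannot be read as particular to the cycle genes. The comparisons among the injected groups and the dose trend had 0 calls under every setting run, and no named gene changed direction where it was called. With a replicate block, 2, 4 and 0 genes were called against control, and Pcna lost its call at 0.1%, again without the counts over all genes. The labels do not say that the numbers pair mice. Of 36 same-number pairs, 5 correlated above 0.1 (median 0.01, highest 0.322). Of 180 different-number pairs, 25 did (median -0.01, highest 0.25). Such correlations cannot settle whether the mice were paired. Ccnd1 was called in 37 of 38 alternatives for STZ and for 0.1% quercetin against control, and lost its call with the Gapdh covariate. Of the 38, 24 left out 1 mouse. Some of those mice were in groups outside the comparison, where leaving them out does not change the difference. Of all called genes, 54.5% were higher in STZ livers, against 74.5% on the values as deposited, 37.9% under median and 40.6% under 75th percentile scaling. Over all genes, 266 higher and 222 lower in STZ livers became 120 and 41 on the values as deposited, and for 0.1% quercetin against control 385 and 346 became 127 and 90. At 0.1% the share was 52.7%, against 29.2% under median scaling. The trend's median over all genes moved from -0.00092 to -0.15 as deposited and -0.14 under median scaling. Signals near background limit most of these genes.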
